A study of Mus musculus with 9 samples.

Results

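The B cell genes are a set of 30 genes that B lymphocytes use to sense antigen, to mature and to make antibody, and they were followed in the adipose stromal vascular fraction (SVF) after surgical priming of subcutaneous fat. Digesting fat and taking off the adipocytes leaves this fraction, a mix of stromal cells, vessel cells and white blood cells. A probe set of the expression array belonged to the set where the array's annotation gave it exactly 1 gene symbol and that symbol, or an older synonym, was one of the 30 genes. All 30 genes, of 18193 with such a probe set, were on the array with 56 probe sets. To be tested, a gene needed a probe set with 3 present calls on 1 day or more, and 29 of the 30 genes passed, among 11796 genes tested in all. The exception was Pax5, the factor that fixes B cell identity, whose 2 probe sets had 1 present call between them on the 9 arrays, on day 0 replicate 1.

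SVFs came from the inguinal fat of wild type BALB/c mice aged 10 weeks, with 3 mice on each day and 1 array per mouse. The groups were day 0, day 1 and day 3 after the surgical injury of the fat, a procedure that the methods describe as mincing of the fat together with ligation of its feeding artery. The labels name no altered allele and no agent in any group. Day 0 served as the nonprimed state, although whether its mice had any operation before harvest is not given in the sources used here, which bears on every change against day 0. Mice that had only a sham operation are not analysed here.

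B cells carry an antigen receptor made of membrane immunoglobulin and a pair of signaling chains, and coreceptors on the same membrane set how strongly it fires. Follicular B cells circulate between blood and lymph nodes, whereas plasma cells, which secrete antibody, arise from activated B cells and shut down much of the B cell program. The inguinal fat pad of the mouse encloses a lymph node, and whether the node was left in the digested tissue is not given in the sources used here.

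Of 45101 probe sets on each array, between 25677 and 26299 were called present on day 0, between 24106 and 25557 on day 1 and between 25069 and 25292 on day 3. Actin probe sets at the 3' end read 1.15 to 1.32 times as high as those at the 5' end, a measure of RNA integrity. Signals are MAS5 signals on a linear scale, which the authors had scaled to a mean of 500 on each array. The median signal of an array, which this scaling does not fix, lay between 106 and 122 on day 0, between 90.0 and 103 on day 1 and between 104 and 109 on day 3, with every day 1 array below every day 0 array. Changes are differences of mean log2 signal with limma's standard error, from 3 mice on each day, and adjusted p-values are two-sided from limma with Benjamini-Hochberg adjustment over the 11796 genes. A gene is called where the adjusted p is under 0.05. The signals of different genes come from different probes, so levels are set side by side only within a gene.

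Promoters of 23 of the 30 genes were found in a RefSeq table (GRCm38.p6), with 27 windows reaching from 250 bases before to 50 bases after a start site. They are shown for the members with a motif of a B cell factor, because several members encode such factors or their partners. The octamer ATGCAAAT, bound by Oct-2 (Pou2f2) together with its coactivator OCA-B (Pou2af1), was found on either strand in 2 members, against 1.74% of all 32851 promoters. GAGGAAGT, a core bound by the Ets factors PU.1 and Spi-B (Spib), was found in 4 members, against 3.20% of all promoters. The core bound by EBF1, TCCC and GGGA around 2 bases of any kind, was found in 1 member, against 0.904%. No match overlapped another. The stretches are written along the gene's own strand with the match in capitals.
Vpreb3, octamer, chr10:75948233-75948284 on the plus strand: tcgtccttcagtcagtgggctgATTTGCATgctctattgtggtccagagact
Blnk, octamer, chr19:40994322-40994373 on the minus strand: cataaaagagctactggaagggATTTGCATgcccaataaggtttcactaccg
Fcrl1, Ets core, chr3:87376350-87376386 on the plus strand: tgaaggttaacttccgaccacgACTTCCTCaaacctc
Cd72, Ets core, chr4:43454646-43454697 on the minus strand: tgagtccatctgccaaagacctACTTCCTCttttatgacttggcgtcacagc
Cd37, Ets core, chr7:45238840-45238886 on the minus strand: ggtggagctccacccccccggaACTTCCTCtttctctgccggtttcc
Btla, Ets core, chr16:45224297-45224336 on the plus strand: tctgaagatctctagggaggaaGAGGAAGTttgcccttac
Cd22, EBF core, chr7:30879046-30879099 on the minus strand: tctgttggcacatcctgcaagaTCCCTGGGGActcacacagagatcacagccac
The octamer lay 45 to 38 bases before the start of Vpreb3 and 130 to 123 bases before that of Blnk, the Ets core between 49 and 8 bases before the start in its 4 genes, and the EBF core 49 to 40 bases before that of Cd22. A match of letters is not a measured binding site, and these genes are described with the others of their role.

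Most B cell genes were at a lower level after priming, with 27 of the 29 fitted below day 0 on day 1 and 28 on day 3. Of all 11796 genes tested, 7342 were fitted below day 0 on day 1 and 6209 on day 3. On day 1, 10 of the 29 genes tested were called lower and 2 higher, where 17.9% of all genes were called lower and 10.7% higher. On day 3, 19 of 29 were called lower and 1 higher, where 12.5% of all genes were called lower and 13.6% higher. The median log2 change of the 29 genes was -0.71 on day 1 and -1.05 on day 3, beside -0.13 and -0.03 over all genes tested. SVFs are a mixture, and each array is scaled to a fixed mean. Fewer B cells, less RNA per B cell and more RNA from other cells cannot be told apart here. Both comparisons share the day 0 arrays. The members' own order of the days was mostly one of 2 kinds: 17 genes were lowest on day 3 and highest on day 0, and 10 were lowest on day 1 and highest on day 0. Cd180 was lowest on day 0 and highest on day 1, and Cd24a lowest on day 3 and highest on day 1. In a fit of probe sets present on all 9 arrays, which leaves out Vpreb3 and Ly6d, 10 of 27 were called lower and 2 higher on day 1, where 18.9% of all genes were called lower, and 19 lower and 1 higher on day 3, where 12.8% were.

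**Figure D1:**
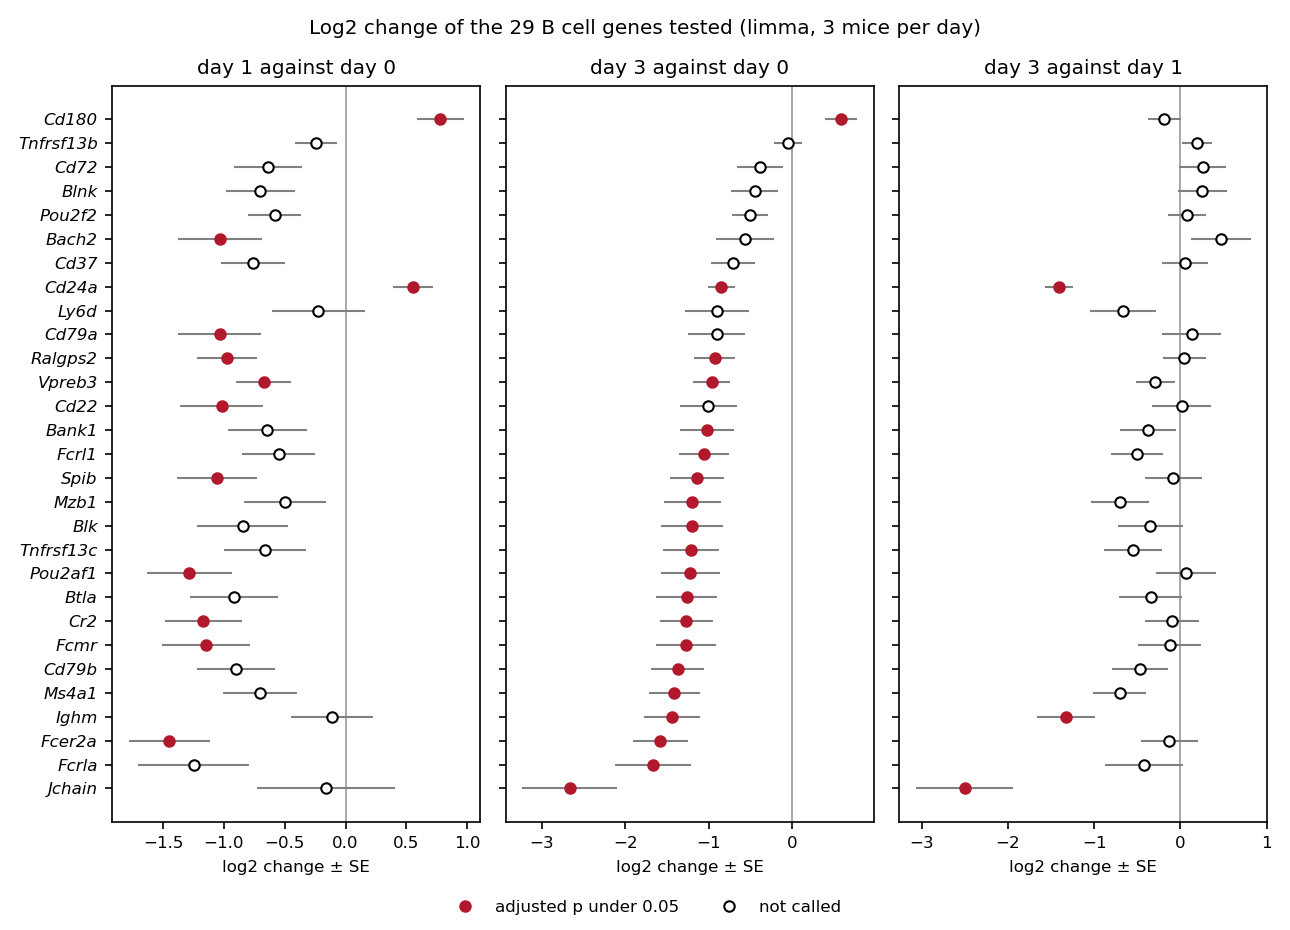
Log2 change of each of the 29 B cell genes tested (x axis, with limma's standard error as the bar) for day 1 against day 0, day 3 against day 0 and day 3 against day 1, with genes in the order of their day 3 change. Filled points have an adjusted p under 0.05: 12 genes in the first panel, 20 in the second and 3 in the third.

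The spread between mice of 1 day was wide for these genes and ran the same way in most of them. The ratio of the highest to the lowest of the 3 mice had a median of 1.77 on day 0, 2.21 on day 1 and 1.88 on day 3 over the B cell genes, beside 1.27, 1.33 and 1.19 over all genes tested. Day 0 replicate 1 held the highest signal of its day for 28 of the 29 genes, where the same array was highest for 32.7% of all genes. Day 1 replicate 3 was the highest of its day for 27 genes and day 1 replicate 1 the lowest for 25. Over all genes tested, the corresponding shares were 40.5% and 31.9%. On day 3, replicate 2 was the lowest for 27 genes and replicate 3 the highest for 23, beside 34.6% and 33.7% of all genes. Since the members move together from mouse to mouse, their calls are not separate pieces of evidence.

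**Figure D2:**
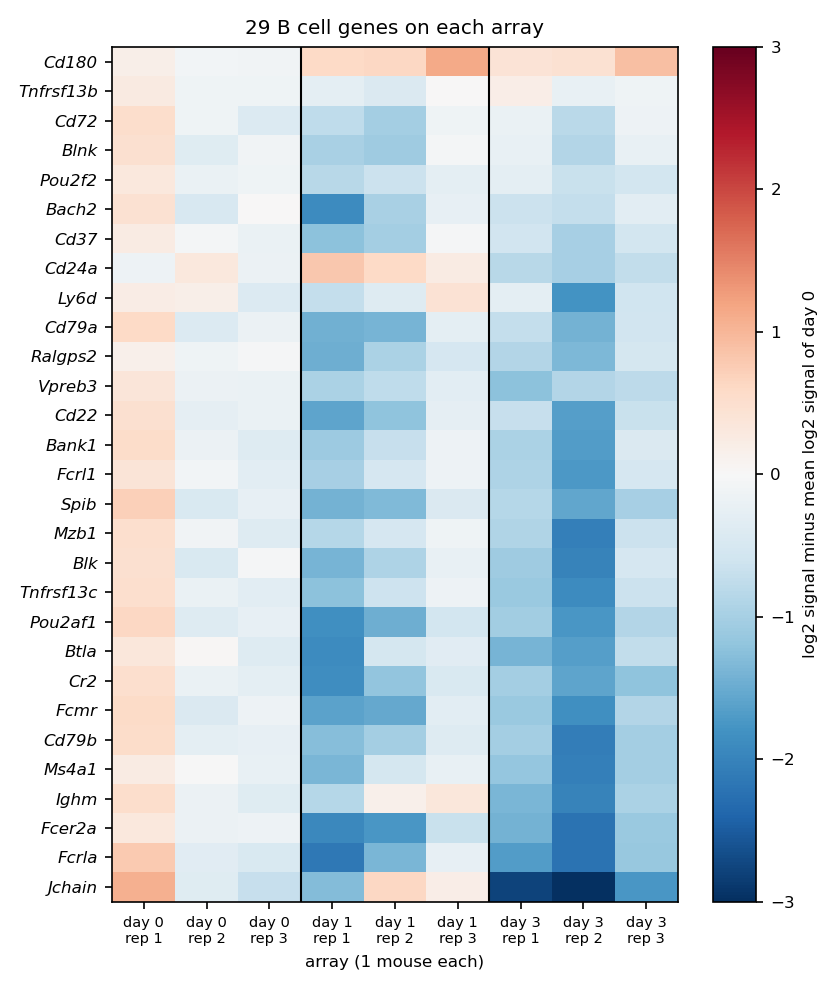
Log2 signal of the 29 B cell genes tested (rows) on each of the 9 arrays (columns, 1 mouse each), minus the gene's mean log2 signal on day 0. Day 0 replicate 1, day 1 replicate 3 and day 3 replicate 3 are the palest or reddest columns of their days for most genes, and the bottom row, Jchain, stays near its day 0 level on day 1 and is lowest on day 3.

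The antigen receptor complex holds the heavy chain of IgM (Ighm) and the signaling chains Ig-alpha (Cd79a) and Ig-beta (Cd79b), which carry the receptor's signal into the cell. Cd79a had signals of 917, 461 and 536 on day 0, 226, 233 and 501 on day 1, and 369.8, 228 and 412 on day 3. Day 1 replicate 3 lay among the day 0 mice and the other day 1 mice below them, while all day 3 mice lay below all day 0 mice. Cd79a fell on day 1, by a log2 change of -1.03 ± 0.34 (adjusted p = 0.0422), and its day 3 change of -0.90 ± 0.34 missed the threshold (adjusted p = 0.0738). Cd79b had signals of 4211, 2323 and 2413 on day 0, 1178, 1412 and 2179 on day 1, and 1410.2, 680.4 and 1424 on day 3. Every mouse of day 1 and of day 3 was below every mouse of day 0. Its change was -0.90 ± 0.32 (adjusted p = 0.0549) for day 1 and -1.37 ± 0.32 (adjusted p = 0.00928) for day 3, when it was 2.59 times lower and called. The 2 chains, which work as a pair, thus differed in which day passed the threshold, and whether their changes differ from each other was not tested.

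Ighm was the member with the most probe sets, 11, of which 4 were absent on all arrays and 7 passed the filter. Its brightest probe set, 1427351_s_at, had signals of 11752, 7224 and 6333 on day 0, 4528, 9082 and 10350.0 on day 1, and 3156, 2021 and 4194 on day 3. On day 1, replicates 2 and 3 lay within the day 0 range and replicate 1 below it, and all day 3 mice were below all mice of both other days. The change of Ighm on day 1, -0.11 ± 0.34, was not called (adjusted p = 0.821), and Ighm fell on day 3 (log2 change -1.44 ± 0.34, adjusted p = 0.00895). Day 3 was also below day 1 (log2 change -1.33 ± 0.34, adjusted p = 0.0227). The next brightest probe set, 1427329_a_at, had signals of 10905, 7017 and 6410.3 on day 0, 3626, 5423 and 7375 on day 1, and 3635, 1993 and 3589 on day 3. It gave -0.59 ± 0.29 (adjusted p = 0.149) on day 1, -1.41 ± 0.29 (adjusted p = 0.00507) on day 3 and -0.83 ± 0.29 (adjusted p = 0.0876) for day 3 against day 1, so its day 3 fall was called and its difference between day 3 and day 1 was not. Adjusted p-values of single probe sets are over the 21283 probe sets tested one by one.

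The dimmer Ighm probe sets behaved differently from these. 1425247_a_at had signals of 1529, 248 and 198 on day 0, 59.3, 2789 and 387 on day 1, and 65.3, 50.9 and 59.2 on day 3. Day 0 replicate 1 and day 1 replicate 2 stood far above the other mice of their days, and the probe sets 1425324_x_at, 1427756_x_at and 1427870_x_at had the same highest array on each of these days. Of those 4 probe sets, 1427756_x_at was called on day 3, with -3.35 ± 1.05 (adjusted p = 0.0401), and 1425247_a_at was not, with -2.86 ± 1.09 (adjusted p = 0.0807). Probe sets whose names end in _x_at or _s_at can bind transcripts of several related genes, so the share of other immunoglobulin genes in these signals is uncertain. The seventh probe set, 1452535_at, gave -0.92 ± 0.41 (adjusted p = 0.135) on day 3.

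**Figure D3:**
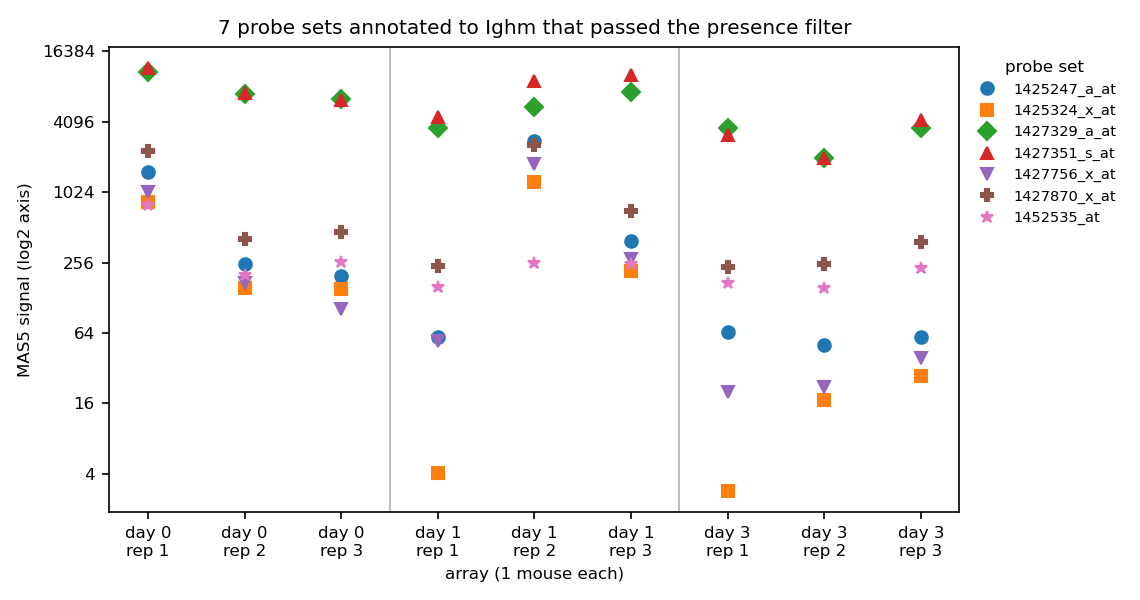
MAS5 signal (y axis, log2 scale) of the 7 probe sets annotated to Ighm that passed the filter on each of the 9 arrays (x axis, 1 mouse each). The 2 brightest probe sets are lowest on day 3, while 4 dimmer ones peak in day 0 replicate 1 and day 1 replicate 2, where 1425247_a_at read 1529 and 2789.

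Behind the receptor act the kinase Blk, which phosphorylates its signaling chains, the adaptor Blnk, which links it to calcium signaling, and the scaffold Bank1, which tunes the calcium response. None of the 3 was called on day 1, and Blk and Bank1 were called lower on day 3. Blk had signals of 1996, 1055 and 1411 on day 0, 549, 759.9 and 1224 on day 1, and 687, 356 and 1009.6 on day 3. All day 3 mice were below all day 0 mice, and on day 1 replicate 3 was among them. Its change was -0.85 ± 0.38 (adjusted p = 0.109) for day 1 and -1.20 ± 0.38 (adjusted p = 0.036) for day 3. Bank1 had signals of 4298, 2619 and 2262 on day 0, 1384, 1818 and 2657 on day 1, and 1523, 923 and 2188 on day 3. Again only the day 3 mice were all below the day 0 mice. Bank1 gave -0.64 ± 0.33 (adjusted p = 0.155) on day 1 and fell on day 3 (log2 change -1.02 ± 0.33, adjusted p = 0.0399). Blnk, whose promoter window holds an octamer, ranged from 2183 to 3887 on day 0, from 1330 to 2676 on day 1 and from 1528 to 2382 on day 3. Its days overlapped, with changes of -0.70 ± 0.28 (adjusted p = 0.0847) for day 1 and -0.45 ± 0.28 (adjusted p = 0.275) for day 3.

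Coreceptors and inhibitory receptors set the threshold of the antigen receptor. Cr2, the complement receptor that lowers this threshold when antigen carries complement, had signals of 1914, 1170.2 and 1098 on day 0, 369, 595 and 980.1 on day 1, and 670.1, 453 and 580.3 on day 3. Every primed mouse was below every day 0 mouse. Cr2 fell 2.25 times on day 1 (log2 change -1.17 ± 0.32, adjusted p = 0.0188), and 2.41 times on day 3 (log2 change -1.27 ± 0.32, adjusted p = 0.013). Cd22, a sialic acid-binding inhibitor of the receptor, had signals of 3927, 2346 and 2464 on day 0, 946, 1225 and 2358 on day 1, and 1750.1, 907 and 1778 on day 3. Day 1 replicate 3 lay just inside the day 0 range, and the day 3 mice all lay below it. Cd22 fell on day 1 (log2 change -1.02 ± 0.34, adjusted p = 0.0445), and its day 3 mean, 2 times below that of day 0, was not called (adjusted p = 0.0502). A second probe set was called on neither day, with -1.08 ± 0.42 (adjusted p = 0.0763) for day 1 and -1.20 ± 0.42 (adjusted p = 0.0582) for day 3.

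Btla, an inhibitory receptor that T cells also carry, had signals of 4218, 3416 and 2561 on day 0, 907, 2308 and 2615 on day 1, and 1265, 1058 and 1991 on day 3. Its day 3 mice were all below the day 0 mice and day 1 replicate 3 was among them. It was not called on day 1, with -0.92 ± 0.36 (adjusted p = 0.0759), and fell on day 3 (log2 change -1.26 ± 0.36, adjusted p = 0.0239). Fcrl1, an Fc receptor-like activator of B cells, had signals of 1753, 1250.4 and 1078 on day 0, 665, 946 and 1193 on day 1, and 705, 403 and 934 on day 3. The pattern of overlap was that of Btla. Fcrl1 gave -0.55 ± 0.30 (adjusted p = 0.183) on day 1 and fell on day 3 (log2 change -1.05 ± 0.30, adjusted p = 0.0241), and a second probe set gave -1.60 ± 0.42 (adjusted p = 0.0182). Cd72, another inhibitor, had from 1192 to 2302 on day 0, from 786 to 1446 on day 1 and from 906 to 1435 on day 3. Cd72 was not called, with -0.64 ± 0.28 (adjusted p = 0.103) for day 1 and -0.38 ± 0.28 (adjusted p = 0.339) for day 3. Of the 4 genes with an Ets core near the start, Btla, Fcrl1, Cd72 and Cd37, 2 were called lower on day 3 and 0 on day 1. Of all 29 members tested, 19 were called lower on day 3 and 10 on day 1, and a link to the motif was not tested.

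Among the other surface proteins, Fcer2a (CD23), the low-affinity IgE receptor of follicular B cells, had the most negative change on day 1 of all B cell genes. Its signals were 2368, 1679 and 1705 on day 0, 498, 566 and 1183 on day 1, and 709.9, 408 and 881 on day 3. No mouse of day 1 or day 3 reached the day 0 range. Fcer2a fell 2.73 times on day 1 (log2 change -1.45 ± 0.33, adjusted p = 0.00894), and 2.98 times on day 3 (log2 change -1.58 ± 0.33, adjusted p = 0.00525). Day 3 against day 1 was not called, with -0.13 ± 0.33 (adjusted p = 0.825). Its second probe set was called lower on both days too, with -1.87 ± 0.49 (adjusted p = 0.0186) and -1.76 ± 0.49 (adjusted p = 0.0249).

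Fcmr, the Fc receptor for IgM, had signals of 4854, 2421 and 2917 on day 0, 1076, 1115 and 2621 on day 1, and 1509, 908 and 1768 on day 3. Day 1 replicate 3 alone of the primed mice overlapped day 0. Fcmr fell on day 1 (log2 change -1.15 ± 0.36, adjusted p = 0.0344) and on day 3 (log2 change -1.27 ± 0.36, adjusted p = 0.0234). Ms4a1 (CD20), a membrane protein of mature B cells, had signals of 7251, 6009 and 5217 on day 0, 2351, 4226 and 5265 on day 1, and 2738, 1466 and 3004 on day 3. The day 1 mice reached from below the day 0 range into it, and the day 3 mice were all below it. Ms4a1 gave -0.71 ± 0.30 (adjusted p = 0.1) on day 1, which is not called, and fell on day 3 (log2 change -1.41 ± 0.30, adjusted p = 0.00595). Both of its probe sets were called lower on day 3.

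Cd37, a tetraspanin of B cells, and Ly6d, a surface marker of early B lineage cells, were not called on either day by the probe set that stands for the gene. Cd37 had from 1442 to 1965 on day 0, from 704 to 1614 on day 1 and from 829 to 1132 on day 3, so the day 3 mice were all below day 0 while the changes of -0.76 ± 0.27 (adjusted p = 0.0505) and -0.70 ± 0.27 (adjusted p = 0.0713) missed the threshold. Its other probe set was called lower on day 3, with -0.80 ± 0.24 (adjusted p = 0.0314), and not on day 1, with -0.68 ± 0.24 (adjusted p = 0.0517). Ly6d was dim, from 176 to 269.8 on day 0, from 141 to 315 on day 1 and from 67.6 to 190.1 on day 3, with 8 of 9 arrays called present and changes of -0.22 ± 0.38 (adjusted p = 0.682) and -0.89 ± 0.38 (adjusted p = 0.109).

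Cd180 and Cd24a were the members that were higher on day 1, and both are carried by other cells as well. Cd180, a relative of Toll-like receptor 4 found on B cells, macrophages and dendritic cells, had signals of 271, 228 and 224 on day 0, 362, 366 and 527 on day 1, and 319, 328 and 450.1 on day 3. All primed mice were above all day 0 mice. Cd180 rose by 0.78 ± 0.19 (adjusted p = 0.0125) on day 1 and by 0.59 ± 0.19 (adjusted p = 0.0416) on day 3. Cd24a, a surface glycoprotein of immature B cells, neutrophils and epithelial cells, had signals of 6685, 9219.5 and 6594 on day 0, 12953, 11276 and 8804 on day 1, and 4169.8, 3723 and 4473 on day 3. On day 1 replicates 1 and 2 were above the day 0 range and replicate 3 within it, while all day 3 mice were below all others. Cd24a rose on day 1, by 0.55 ± 0.16 (adjusted p = 0.0264), and fell on day 3 (log2 change -0.85 ± 0.16, adjusted p = 0.00306), which puts day 3 2.65 times below day 1 with a change of -1.40 ± 0.16 (adjusted p = 0.0003). All 3 of its probe sets were called higher on day 1 and lower on day 3. Markers of neutrophils and of monocytes and macrophages, which can carry these proteins, moved in the same samples and are given with the other marker lists, and their part in these changes was not tested.

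**Figure D4:**
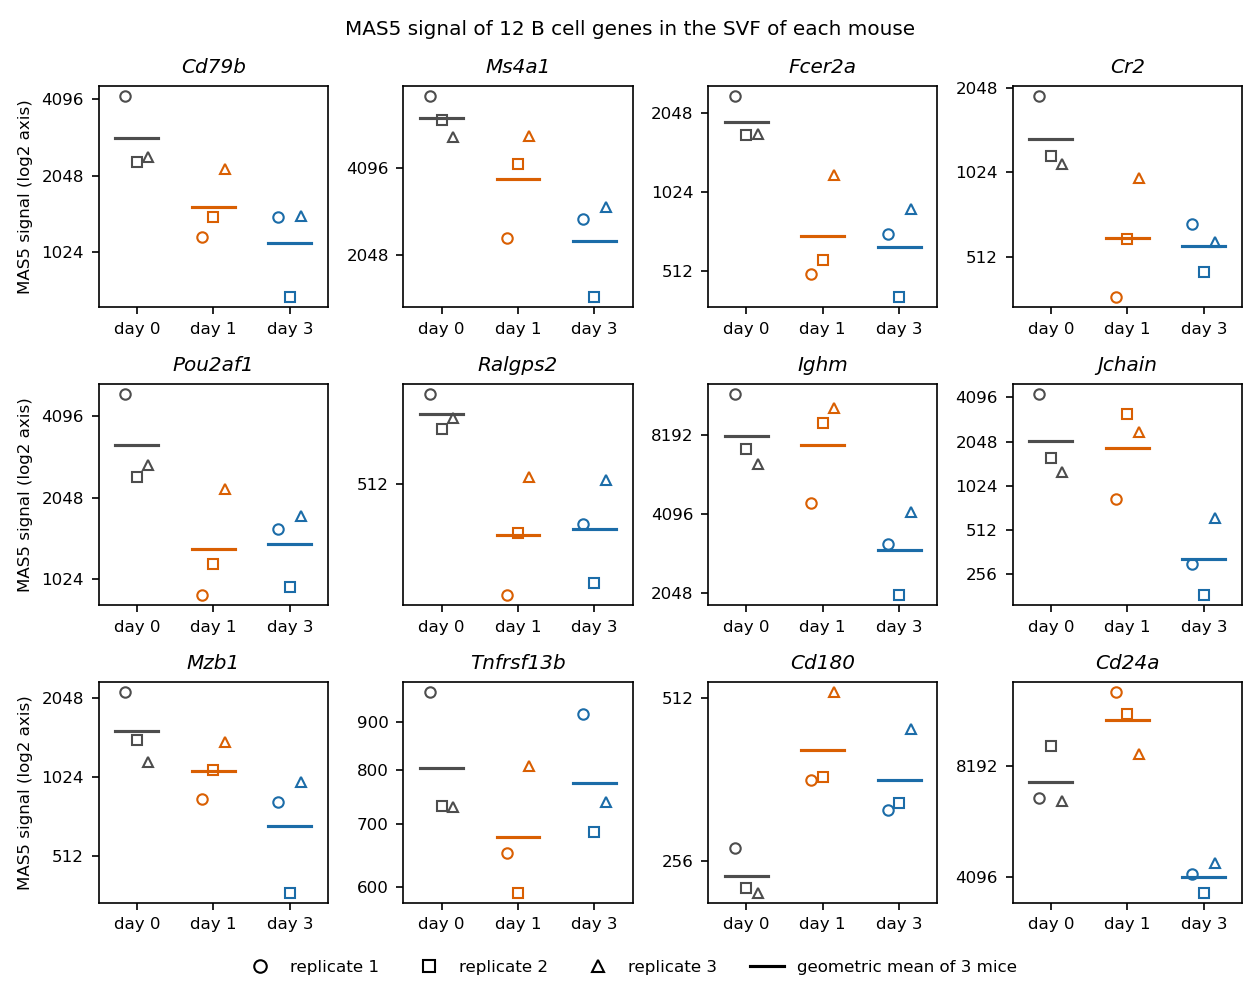
MAS5 signal (y axis, log2 scale, differing between panels) of 12 B cell genes in each of 3 mice on days 0, 1 and 3 (x axis); symbols mark the replicate and lines the geometric mean. Fcer2a, Cr2, Pou2af1 and Ralgps2 have no primed mouse inside the day 0 range, Ighm and Jchain reach into it on day 1 and lie below it on day 3, and Cd180 lies above day 0 on both days.

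Of the receptors for the survival factors BAFF and APRIL, Tnfrsf13c was called lower on day 3 and Tnfrsf13b was not. Neither was called on day 1, and whether their changes differ from each other was not tested. Tnfrsf13c, the BAFF receptor on which mature B cells depend, had signals of 2141, 1305 and 1212 on day 0, 644, 975 and 1360.1 on day 1, and 691, 407 and 962 on day 3. Its day 3 mice were all below day 0, and on day 1 replicate 3 exceeded replicates 2 and 3 of day 0. Tnfrsf13c gave -0.66 ± 0.33 (adjusted p = 0.154) on day 1 and fell on day 3 (log2 change -1.21 ± 0.33, adjusted p = 0.0208). Tnfrsf13b (TACI), which binds both factors, had signals of 968, 732 and 729.5 on day 0, 653, 592 and 808 on day 1, and 917, 687 and 739 on day 3. The 3 days overlapped. Its changes of -0.24 ± 0.17 (adjusted p = 0.294) for day 1 and -0.05 ± 0.17 (adjusted p = 0.854) for day 3 were not called, and its day 3 change was the closest to 0 of the 29 genes.

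Of the 5 transcription factors and coactivators, 4 passed the filter. Of these, 3 were called lower on day 1 and 2 on day 3, where 17.9% and 12.5% of all genes were. Day 3 against day 1 was called for none of them. Pou2af1, the octamer coactivator OCA-B, had signals of 4963, 2447 and 2714 on day 0, 892, 1158 and 2205 on day 1, and 1568, 955 and 1754 on day 3. Every primed mouse was below every day 0 mouse. It fell on day 1 (log2 change -1.29 ± 0.35, adjusted p = 0.0192) and on day 3 (log2 change -1.22 ± 0.35, adjusted p = 0.0244). Spib, the Ets factor Spi-B, had signals of 2315, 1014 and 1173 on day 0, 525, 559 and 1041 on day 1, and 772, 473 and 706 on day 3. Day 1 replicate 3 was within the day 0 range and the other primed mice below it. Spib fell on day 1 (log2 change -1.06 ± 0.33, adjusted p = 0.033) and on day 3 (log2 change -1.14 ± 0.33, adjusted p = 0.0254).

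Bach2, a repressor that holds back the plasma cell program, had signals of 2055, 1083 and 1518 on day 0, 406, 770.2 and 1266 on day 1, and 959.7, 913 and 1201 on day 3. Days 1 and 3 both overlapped day 0. Bach2 fell on day 1 (log2 change -1.03 ± 0.34, adjusted p = 0.0432), and was not called on day 3, with -0.56 ± 0.34 (adjusted p = 0.256). Of its 3 probe sets, a second was called lower on day 1, with -1.29 ± 0.43 (adjusted p = 0.047), and the third, dimmer one was not, with -0.18 ± 0.29 (adjusted p = 0.671). Pou2f2 (Oct-2) was tested by probe set 1427713_x_at, of a kind that can bind transcripts of related genes. Its signals were dim, from 129.8 to 184 on day 0, from 83.9 to 121 on day 1 and from 93.6 to 121 on day 3. In this probe set all primed mice were below all day 0 mice. The changes of -0.58 ± 0.22 (adjusted p = 0.0672) and -0.50 ± 0.22 (adjusted p = 0.117) were not called. Probe sets 1427725_a_at and 1443885_at had 0 present calls. The latter read from 27.8 to 64 on day 0 and from 59 to 92.7 on day 3. Pax5 gave signals between 51.5 and 157 for its brighter probe set and between 5.69 and 130.2 for the other, near the limit of detection, and was not tested.

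Of the intracellular B cell proteins, Ralgps2, an exchange factor for the GTPase Ral, had signals of 846, 694 and 737 on day 0, 275, 390.1 and 533 on day 1, and 409.6, 295 and 522 on day 3. Day 1 and day 3 were wholly below day 0. Ralgps2 fell on day 1 (log2 change -0.97 ± 0.25, adjusted p = 0.0143) and on day 3 (log2 change -0.93 ± 0.25, adjusted p = 0.0176), the values of the 2 days lying close together. Of its other probe sets, 1 was called lower on both days, with -0.80 ± 0.24 (adjusted p = 0.0304) and -1.22 ± 0.24 (adjusted p = 0.00406), and 1 on neither, with -0.70 ± 0.29 (adjusted p = 0.0985) and -0.71 ± 0.29 (adjusted p = 0.104). Fcrla, an Fc receptor-like protein kept inside the cell that binds immunoglobulin, had signals of 1860.1, 848 and 781 on day 0, 244, 413 and 911 on day 1, and 337, 232 and 490.4 on day 3. Day 1 replicate 3 overlapped day 0 and no mouse of day 3 did. It gave -1.25 ± 0.45 (adjusted p = 0.059) on day 1, which is not called, and fell on day 3, 3.18 times (log2 change -1.67 ± 0.45, adjusted p = 0.0197). Its other probe sets were split, 1 called lower on day 1 alone (adjusted p = 0.0368) and 1 on day 3 alone (adjusted p = 0.0361). Vpreb3, a protein that escorts immunoglobulin chains in developing B cells, was dim, with 357, 248 and 245 on day 0, 143, 166 and 225 on day 1, and 119, 151 and 163 on day 3. Its primed mice were all below day 0, and its probe set was called present on 3 arrays of day 0, 1 of day 1 and 0 of day 3, so that it was tested through day 0. Its log2 changes were -0.67 ± 0.22 (adjusted p = 0.0418) for day 1 and -0.96 ± 0.22 (adjusted p = 0.00881) for day 3, and because a gene that passes through day 0 alone had to be high there, they are given as a description although the counts include them. With no presence filter the day 1 change was not called (adjusted p = 0.0806) and the day 3 change was.

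Jchain and Mzb1, which serve antibody secretion, were not called on day 1 and fell on day 3. Jchain joins IgM and IgA into polymers, and its signals were 4323, 1589 and 1268 on day 0, 831, 3170.5 and 2367 on day 1, and 301, 185 and 613 on day 3. On day 1, replicates 2 and 3 lay within the day 0 range and replicate 1 below it, and all day 3 mice were below all mice of days 0 and 1. Jchain gave -0.16 ± 0.57 (adjusted p = 0.849) on day 1 and fell on day 3 (log2 change -2.67 ± 0.57, adjusted p = 0.00549), when it was 6.34 times below day 0, the largest change of the 29 genes. Day 3 was 5.67 times below day 1, with a change of -2.50 ± 0.57 (adjusted p = 0.014). Its spread between mice was also the widest of the 29 genes on every day, with a highest to lowest ratio of 3.41 on day 0, 3.82 on day 1 and 3.31 on day 3. Mzb1, a chaperone of the endoplasmic reticulum in which antibody is assembled, had signals of 2168, 1419.6 and 1167 on day 0, 844, 1088 and 1393 on day 1, and 821, 372 and 984 on day 3. The day 3 mice were all below day 0. Mzb1 gave -0.50 ± 0.34 (adjusted p = 0.282) on day 1 and fell on day 3 (log2 change -1.19 ± 0.34, adjusted p = 0.0232), while day 3 against day 1 gave -0.70 ± 0.34 (adjusted p = 0.184).

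Day 3 was also compared directly with day 1, which tests whether the changes of the 2 days differ. Of the 29 genes, 0 were called higher and 3 lower, Cd24a, Ighm and Jchain, where 9.66% of all genes were called higher and 4.54% lower. The median change was -0.19, beside 0.09 over all genes. At the other end, Fcer2a, Cr2, Pou2af1, Cd22 and Ralgps2, all called lower on day 1, differed between day 3 and day 1 by -0.13 ± 0.33, -0.10 ± 0.32, 0.07 ± 0.35, 0.02 ± 0.34 and 0.05 ± 0.25, none of them called. The change of Bach2 was 0.47 ± 0.34 (adjusted p = 0.378).

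By overlap of the single mice, 23 of the 29 genes had every day 3 mouse below every day 0 mouse and 1, Cd180, above, where 24.6% of all genes lay wholly below and 22.6% wholly above. On day 1 these were 7 and 1 genes, where 26.1% and 13.8% of all genes did so. Between day 3 and day 1, 3 genes lay wholly below and 0 above, beside 11.5% and 23.4% of all genes. Counted by probe set, 48 of the 56 passed the filter, and 14 were called lower and 4 higher on day 1, where 16.1% of all probe sets were called lower and 9.02% higher. On day 3, 29 were called lower and 1 higher, where 11.4% and 10.8% of all probe sets were, and between day 3 and day 1, 5 lower and 0 higher, where 3.74% and 7.19% were. Of the 10 genes with several such probe sets, all 10 had 1 sign over their probe sets on day 3, and 9 did on day 1, the exception being Ighm.

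The calls leaned on single mice, most of all on day 1, and so did those of all genes. Without day 0 replicate 1, 1 gene (Fcer2a) was called lower on day 1, where 11.1% of all genes were, and 7 on day 3, where 9.77% were. On day 1, 1 was called lower without day 1 replicate 1, 2 without day 1 replicate 2, 4 without day 0 replicate 3 and 20 without day 1 replicate 3, where 9.58%, 11.2%, 8.48% and 24.3% of all genes were. On day 3, 7 were called lower without day 3 replicate 2 and 11 without day 3 replicate 1, where 7.04% and 7.51% of all genes were. Cd24a lost its day 1 rise without day 0 replicate 1 or 3 or day 1 replicate 1 or 2, and Cd180 its day 3 rise without day 0 replicate 2 or 3 or any single mouse of day 3. Centring each array on its median left 4 of 29 genes called lower on day 1, where 10.8% of all genes were, and 20 on day 3, where 12.9% were, and it moved the median change of all genes on day 1 to -0.01, beside -0.13 as scaled by the authors. The share of lower genes among all genes called on day 1 was 42.8% after this centring and 53.6% after quantile normalization, beside 62.5% as scaled by the authors.

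Fcer2a kept its day 1 call, and Cd79b, Fcer2a, Ms4a1, Ighm and Jchain their day 3 call, under every alternative tried. Cd180 on day 1 and Cd24a and Vpreb3 on day 3 lost theirs only where a 2-fold limit was set, and Vpreb3 had no value where presence on all 9 arrays was required. The counts that follow leave the settings with a 2-fold limit out. Of the other genes called on day 1, Ralgps2 lost its call under 2 alternatives, Cr2 and Pou2af1 under 3 each, Cd24a under 6, Fcmr under 7, Spib under 8, Cd79a under 10, Cd22 and Vpreb3 under 11 each and Bach2 under 13, with adjusted p-values up to 0.164. Of those called on day 3, Cr2, Spib, Ralgps2 and Mzb1 lost it under 2 each, Fcrla, Pou2af1 and Tnfrsf13c under 3 each, Btla, Fcmr and Fcrl1 under 4 each, Blk under 6, and Bank1 and Cd180 under 7 each, with adjusted p-values up to 0.161. Of the genes not called, 10 gained a call on day 1 under some alternative, 3 on day 3 and 2 between day 3 and day 1. Cd22 gained its day 3 call under 11 of 21, Cd37 a call under 7 on day 1 and 6 on day 3, Cd79b on day 1 under 5 and Cd79a on day 3 under 4. Between day 3 and day 1, Cd24a kept its call under every alternative, and Ighm and Jchain lost theirs without day 1 replicate 2 (adjusted p = 0.0857 and 0.0607), without day 3 replicate 1 (0.0671 and 0.0545) and without day 3 replicate 2 (0.0963 and 0.0657). Ighm also lost it with the mean of its probe sets (adjusted p = 0.117) and without probe sets that can be shared between genes (0.0819).

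Further genes, from a list of B lineage genes outside the set, were mostly lower as well. Of 26 tested, 10 were called lower and 1 higher on day 1, with a median change of -0.54. On day 3, 12 were called lower and 1 higher, with a median change of -0.80. Over all genes, 17.9% were called lower and 10.7% higher on day 1, and 12.5% and 13.6% on day 3. Those called lower on both days include Ebf1 and Ebf2. Ebf2 is counted here and was also listed among genes of adipose progenitors and stroma. Of 21 tested in that list, 8 were called lower and 0 higher on day 1, and 11 lower and 1 higher on day 3. From which cells the falls of Ebf1 and Ebf2 come was not tested. Cxcr5, the receptor that draws B cells into follicles, had signals of 2541, 2269.7 and 2057 on day 0, 559, 1336 and 1946 on day 1, and 928, 561 and 1404 on day 3, with every day 1 and day 3 mouse below every day 0 mouse. It gave -1.01 ± 0.40 (adjusted p = 0.0791) on day 1 and fell on day 3 (log2 change -1.34 ± 0.40, adjusted p = 0.03). Hvcn1, a proton channel of B cells, fell on both days, with log2 changes of -1.10 ± 0.24 (adjusted p = 0.0077) and -1.35 ± 0.24 (adjusted p = 0.00221), and so did the lymphoid transcription factor Ikzf3 (Aiolos), with log2 changes of -1.09 ± 0.31 (adjusted p = 0.0241) and -1.21 ± 0.31 (adjusted p = 0.0151). Genes of B cell development in the bone marrow, Rag1, Rag2, Dntt, Igll1 and Vpreb1, had 0 present calls on the 9 arrays.

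The members' partners in antigen receptor signaling are shared by many other blood cells. Of 26 such genes tested, 7 were called lower and 3 higher on day 1, and 4 lower and 2 higher on day 3, with a median change of -0.21 and 0.02. The shares called lower were 26.9% on day 1 and 15.4% on day 3, beside 17.9% and 12.5% of all genes. The shares called higher were 11.5% and 7.69%, beside 10.7% and 13.6% of all genes. Lat2 and Fcgr2b, which myeloid cells also use, rose on both days, Lat2 by 1.01 ± 0.19 (adjusted p = 0.00327) and 0.85 ± 0.19 (adjusted p = 0.00727) and Fcgr2b by 0.91 ± 0.11 (adjusted p = 0.000139) and 0.75 ± 0.11 (adjusted p = 0.000469), while Rasgrp3, a Ras activator, fell, with log2 changes of -1.09 ± 0.15 (adjusted p = 0.000475) and -0.79 ± 0.15 (adjusted p = 0.00318). In the BAFF and APRIL system outside the members, 1 of 7 genes was called lower and 1 higher on day 1, and 4 lower and 0 higher on day 3. Tnfsf13b, which encodes BAFF itself, fell on day 1 (log2 change -0.65 ± 0.22, adjusted p = 0.0442) and on day 3 (log2 change -0.72 ± 0.22, adjusted p = 0.0316).

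Of 18 tested genes of a plasma cell and antibody list, 1 was called lower and 6 higher on day 1, and 5 lower and 6 higher on day 3, with medians of 0.02 and 0.14. The shares called lower were 5.56% and 27.8%, beside 17.9% and 12.5% of all genes. The share called higher was 33.3% on both days, beside 10.7% and 13.6% of all genes. The 5 genes lower on day 3 were the antibody genes Igk, Igha and Iglv1 with Eaf2 and Irf4, and the 6 higher ones Edem1, Ell2, Fkbp11, Prdm1, Sdc1 and Txndc5. The light chain Igk had signals of 1258, 809 and 608 on day 0, 372, 1650.1 and 791 on day 1, and 313, 175 and 375 on day 3. Day 1 reached above the day 0 range in 1 mouse and below it in another, and all day 3 mice were below all day 0 mice. Igk gave -0.12 ± 0.46 (adjusted p = 0.867) on day 1 and fell on day 3 (log2 change -1.64 ± 0.46, adjusted p = 0.0234), when it was also below day 1 (log2 change -1.52 ± 0.46, adjusted p = 0.0493). The IgA heavy chain Igha likewise was not called on day 1, with -0.60 ± 0.26 (adjusted p = 0.101), and fell on day 3 (log2 change -1.51 ± 0.26, adjusted p = 0.00159), while Fkbp11, a folding enzyme of secretory cells, rose by 0.85 ± 0.22 (adjusted p = 0.0165) and 1.61 ± 0.22 (adjusted p = 0.000396). Tnfrsf17 (BCMA), a receptor of plasma cells, had 0 present calls.

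Markers of the other cells that SVFs or a lymph node can hold moved over the same arrays, and their part in the changes of the B cell genes was not tested. Levels of a list are given as the mean log2 signal over its genes minus the day 0 mean. Beside the counts of calls that follow, 17.9% of all genes were called lower and 10.7% higher on day 1. On day 3 these shares were 12.5% and 13.6%. For the B cell genes this level lay from -0.25 to 0.44 on day 0, from -1.16 to -0.14 on day 1 and from -1.51 to -0.66 on day 3. Of 25 T cell genes tested, 16 were called lower and 0 higher on day 1 and again on day 3, and their level lay from -0.04 to 0.07 on day 0, from -2.14 to -0.49 on day 1 and from -1.35 to -0.82 on day 3. On day 1 the arrays stood in the same order for T cell and B cell genes, with replicate 1 lowest and replicate 3 highest. On day 3 replicate 3 was highest for both, but replicate 1 was lowest for T cell genes and replicate 2 for B cell genes. On day 0 replicate 1, where 28 of the 29 B cell genes were highest, the T cell level was the lowest of the day.

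Receptors for lymphocyte homing and egress had 7 of 12 called lower and 0 higher on each day and levels from -0.08 to 0.14 on day 0, from -1.42 to -0.30 on day 1 and from -1.04 to -0.58 on day 3. Of 17 genes of lymph node vessels and stroma, 5 were called lower and 4 higher on day 1, and 9 lower and 4 higher on day 3, with levels from -0.01 to 0.01 on day 0, from -0.26 to 0.19 on day 1 and from -0.56 to -0.32 on day 3. Glycam1, a ligand for L-selectin on the vessels through which lymphocytes enter lymph nodes, had signals of 4754, 6369 and 6767 on day 0, 432, 2535 and 4064 on day 1, and 1289, 562 and 1033 on day 3. All of its primed mice were below all day 0 mice. Glycam1 fell on day 1 (log2 change -1.84 ± 0.63, adjusted p = 0.0476) and on day 3 (log2 change -2.70 ± 0.63, adjusted p = 0.00919). Cxcl13, the chemokine that attracts B cells through Cxcr5, had signals of 7017, 7629.5 and 6204 on day 0, 12825, 14071 and 10362 on day 1, and 2581, 2696 and 3300.2 on day 3. It was above day 0 in every day 1 mouse and below it in every day 3 mouse, with changes of 0.83 ± 0.14 (adjusted p = 0.00156) and -1.28 ± 0.14 (adjusted p = 7.1e-05).

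Genes of MHC class II presentation and dendritic cells, which B cells partly share, were called lower in 9 of 17 and higher in 0 on day 1, and lower in 9 and higher in 2 on day 3, with levels from -0.13 to 0.19 on day 0, from -0.91 to -0.41 on day 1 and from -0.95 to -0.53 on day 3. Neutrophil genes were called higher in 12 of 14 and lower in 0 on day 1, and higher in 10 and lower in 1 on day 3, with levels from -0.23 to 0.42 on day 0, from 3.93 to 4.45 on day 1 and from 2.28 to 2.83 on day 3. Monocyte and macrophage genes were called higher in 12 of 21 and lower in 1 on day 1, and higher in 12 and lower in 2 on day 3, with levels from -0.12 to 0.19 on day 0, from 1.06 to 1.33 on day 1 and from 0.99 to 1.16 on day 3. Endothelial cell genes were called lower in 12 of 18 and higher in 0 on day 1. On day 3 they were lower in 5 and higher in 1. Their levels lay from -0.67 to -0.60 on day 1 and from -0.39 to -0.15 on day 3. Adipose progenitor and stroma genes were called lower in 8 of 21 and higher in 0 on day 1. On day 3 they were lower in 11 and higher in 1. Levels of this list lay from -0.49 to -0.34 on day 1 and from -0.47 to -0.33 on day 3. Because the signals are scaled to a fixed mean on each array, a level here is a share of the RNA of all cells together. Skeletal muscle genes, a sign of tissue next to the fat, were called higher in 1 of 9 on day 1 and in 0 on day 3, and were lowest on day 0 replicate 1, at -0.90, the array on which the B cell genes were highest. On day 1 both lists were lowest on replicate 1, with muscle genes at -0.03 and B cell genes at -1.16. On day 3 muscle genes were lowest on replicate 3, at -0.12, where the B cell genes were highest of that day.

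**Figure D5:**
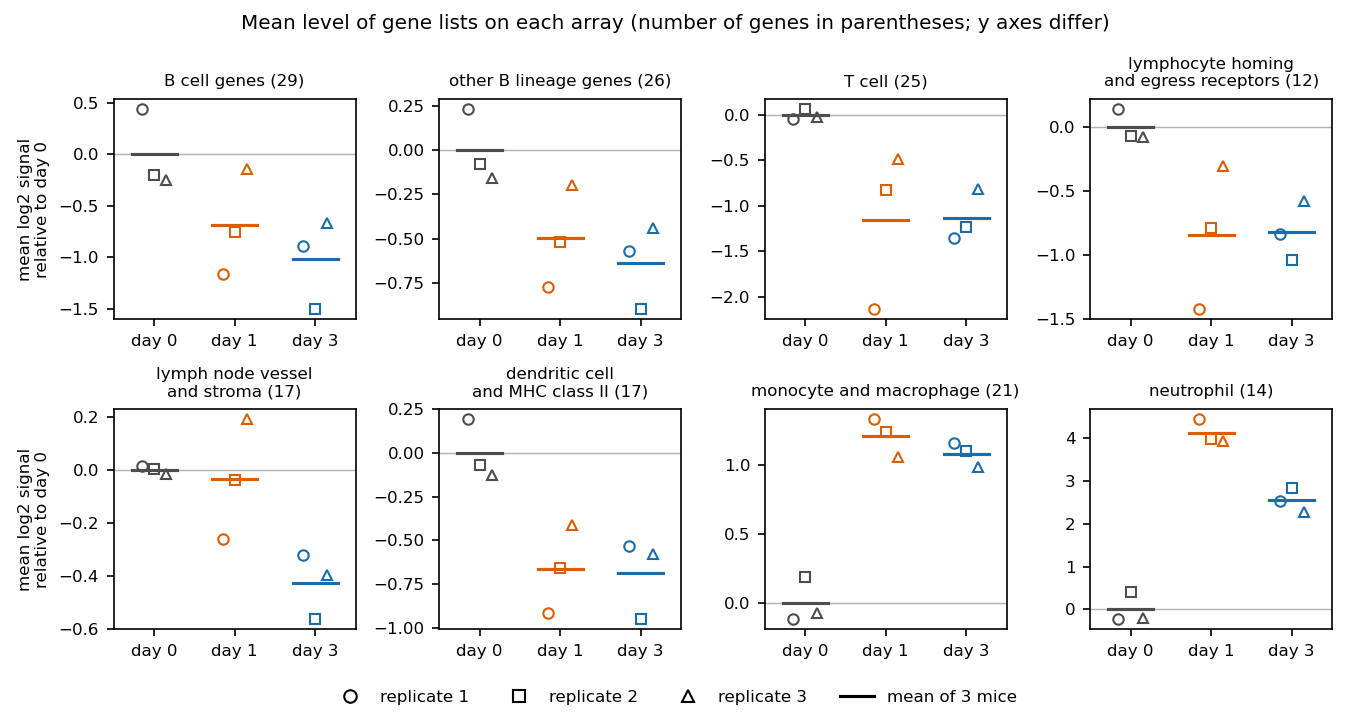
Mean log2 signal of the genes of each list on each array, relative to the day 0 mean (y axis, differing between panels), on days 0, 1 and 3 (x axis), with 1 symbol per mouse and a line at the mean. The B cell, T cell and homing lists lie below 0 in all primed mice, and the monocyte and neutrophil lists lie above 0 in all of them.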

How the data were processed

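RNA of SVFs was hybridised to Affymetrix Mouse430_2 arrays. The authors summarized the probes with MAS5 and scaled each array to a trimmed mean signal of 500, and each deposited file gives, for every one of the 45101 probe sets, a signal intensity on a linear scale and the detection p-value behind its call as present, marginal or absent. Version and genome build are not given in the sources used here. The value table deposited for all samples differs from these files by at most 5e-04 percent.

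Genes were named from the platform annotation, with symbols updated through Entrez identifiers to RefSeq. Of the probe sets, 34945 have 1 symbol, 932 several and 64 are controls. A gene was its brightest probe set, by mean log2 signal, among those with 1 symbol and 3 present calls on 1 day or more. Log2 signals, with no offset, of all 9 arrays entered 1 limma 3.58.1 fit (lmFit, contrasts.fit, eBayes with a variance trend, R 4.3.3) with day as the factor and 6 residual degrees of freedom. limma took the place of the methods' repeated-measurements analysis of variance with a 2-fold limit. Since each mouse gave 1 array, a one-way form of it, with unadjusted p, was run as an alternative. The fit was tested on simulated data. The number of arrays limits the precision.

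The B cell genes, the other gene lists and their roles were chosen with earlier results of these data known, so no list was tested as a list. All members are named, with the signal on each array for those called in a comparison and ranges for the others. From each other list at most 4 called genes with the largest change in a comparison and 2 not called are given with values. Normalization alternatives were median centring, quantile normalization, and offsets of 16 or 64. For the choice of probe sets they were the lack of a filter, presence on all 9 arrays, a mean per gene and the removal of shared probe sets. For the fit they were array weights, no variance trend, the 6 arrays of a comparison alone, the replicate number as a block and the removal of each array in turn. The methods' limit of 2-fold was also set on called genes.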

Additional observations from a re-analysis of the deposited data

Results flagged for a closer look

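3 B cell genes had a change on day 3 that differed from their change on day 1 in the direct limma comparison of the 2 days, over 3 mice each. Cd24a was higher than day 0 on day 1 and lower on day 3, a difference of -1.40 on the log2 scale (adjusted p = 0.0003), with all 3 mice of day 3 below all 3 of day 1. Ighm differed by -1.33 (adjusted p = 0.0227) and Jchain by -2.50 (adjusted p = 0.014), again with no overlap between the mice of the 2 days. No group had enough samples for a check of single outlying mice.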

How the results depend on the processing

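Of the gene by gene changes recomputed under the alternatives other than the 2-fold limit and the one-way analysis of variance, 1639 kept their side of the threshold, 131 calls were lost, 48 were gained and 0 called changes turned sign. Of the 12 genes called on day 1, 2 kept the call under these, of the 20 on day 3, 7, and of the 3 between day 3 and day 1, 1, and with the 2-fold settings included 1, 5 and 1 did. The 2 members called higher on day 1 became 1 with no variance trend and with only the 6 arrays compared, and 0 with the 2-fold limit or the one-way analysis of variance with that limit. Of all 11796 genes, 1137, 959, 430 and 424 were called higher in these, in the same order. The 10 called lower on day 1 became 4 after median centring, 4 of 30 with no filter, 6 with no variance trend, 6 with only the 6 arrays compared and 2 with the analysis of variance. In the same order, 10.8%, 9.11%, 16.5%, 11.9% and 2.78% of all genes were called lower, beside 17.9% without these changes. The 1 called higher on day 3 became 0 with no filter, no variance trend, the 2-fold limit and the analysis of variance. The 19 called lower on day 3 became 6 with the analysis of variance, where 2.87% of all genes were called lower. The 2-fold limit removes smaller changes, and the analysis of variance adds that limit to a test without moderation. No filter means more genes tested, and the 6 arrays leave fewer samples. With the 6 arrays, however, 22 were called lower on day 3, where 16.6% of all genes were. Why the counts changed under each setting was not tested.

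Leaving out 1 array at a time gave 1 to 2 genes called higher and 1 to 20 lower on day 1, 0 to 1 higher and 7 to 22 lower on day 3, and 0 to 1 higher and 1 to 4 lower between day 3 and day 1. The 20, 22 and 4 called lower stand beside 24.3%, 15.4% and 3.51% of all genes. The lowest counts came in several fits each, with 9.58% to 11.1% of all genes lower on day 1 and 7.04% to 9.77% on day 3. Between day 3 and day 1 this share was 2.14% to 2.89%. The median change ranged from -1.02 to -0.53 on day 1, from -1.29 to -0.78 on day 3 and from -0.43 to 0.0876 between day 3 and day 1, where it was above 0 without day 1 replicate 3 (0.0876) and without day 3 replicate 2 (0.0579), beside -0.19 over all arrays. With the replicate number as a block, 12 were called lower and 2 higher on day 1, 21 lower and 1 higher on day 3, and 3 lower and 0 higher between day 3 and day 1. With this block 18.5%, 13.1% and 5.22% of all genes were called lower in the 3 comparisons. Deviations of arrays with the same number correlated from -0.147 to 0.331, and the labels do not say that a number marks a shared batch, so the arrays were not paired. Among all genes called between day 3 and day 1, 32.0% were lower as scaled by the authors, 56.6% after median centring and 42.6% after quantile normalization. Dim members, Pax5, Vpreb3, Ly6d and Pou2f2, lie closest to background, where MAS5 signals are least precise.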

Other observations

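Genes of the germinal center, the site in a follicle where B cells divide and mutate their antibody genes, gave a mixed picture. Of 12 tested, 3 were called higher and 1 lower on day 1, and 3 higher and 2 lower on day 3. Beside these, 10.7% of all genes were called higher and 17.9% lower on day 1, and 13.6% and 12.5% on day 3. Rgs13, a signaling regulator of germinal center B cells and mast cells, fell on day 1 (log2 change -1.17 ± 0.30, adjusted p = 0.0148) and on day 3 (log2 change -2.63 ± 0.30, adjusted p = 9.89e-05), and day 3 was below day 1 (log2 change -1.46 ± 0.30, adjusted p = 0.00849). Of 10 mast cell and eosinophil genes tested, 1 was called lower and 3 higher on day 1. On day 3, 6 of them were called lower and 0 higher. From which cells the fall of Rgs13 comes was not tested. Mki67, which marks dividing cells of every kind, gave 0.12 ± 0.19 (adjusted p = 0.642) on day 1 and rose on day 3, by 1.71 ± 0.19 (adjusted p = 8.24e-05). Bcl6, the factor that drives the germinal center program, was not called, with -0.28 ± 0.17 (adjusted p = 0.223) for day 1 and -0.43 ± 0.17 (adjusted p = 0.0761) for day 3.

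Of 9 genes of follicular dendritic cells, which display antigen to B cells, 2 were called lower and 3 higher on day 1, and 5 lower and 2 higher on day 3. Over all genes, 17.9% were called lower and 10.7% higher on day 1, and 12.5% and 13.6% on day 3. Clu gave -1.12 ± 0.39 (adjusted p = 0.0517) on day 1 and fell on day 3 (log2 change -1.78 ± 0.39, adjusted p = 0.00686), and Coch gave -1.11 ± 0.44 (adjusted p = 0.0794) on day 1 and fell on day 3 (log2 change -1.85 ± 0.44, adjusted p = 0.0105), while Bst1, which myeloid cells carry as well, rose by 3.25 ± 0.18 (adjusted p = 4.6e-07) and 2.43 ± 0.18 (adjusted p = 5.22e-06). Of 11 genes of plasmacytoid dendritic cells, a list that shares Ly6d with the B cell genes, 4 were called lower and 3 higher on day 1, and 3 lower and 2 higher on day 3. The defining gene of these cells in the mouse, Siglech, fell on day 1 (log2 change -0.78 ± 0.21, adjusted p = 0.0192) and on day 3 (log2 change -1.12 ± 0.21, adjusted p = 0.00289).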
